A study of Mus musculus with 18 samples.

Results

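The 34 genes described here encode enzymes of cholesterol and fatty acid synthesis, the proteins that sense and carry sterols in the cell, and 2 cholesterol exporters. The list of genes was chosen with earlier results of these data known. Its genes were taken by symbol from the 45706 genes in each library's table, a step that used no measured value. Of them, 19 act in sterol synthesis (Acat2, Hmgcs1, Mvk, Pmvk, Mvd, Idi1, Fdps, Ggps1, Fdft1, Sqle, Lss, Cyp51, Dhcr7, Sc5d, Ebp, Nsdhl, Msmo1, Hsd17b7 and Tm7sf2). Another 4 act in sterol sensing and transport (Insig1, Srebf1, Srebf2 and Stard4), 9 in fatty acid synthesis (Scd1, Scd2, Fasn, Acaca, Acly, Acss2, Fads1, Fads2 and Elovl6) and 2 in efflux driven by liver X receptors, or LXRs (Abca1 and Abcg1). All 34 passed the filter on low counts, among 12255 genes tested. RNA-seq measured them in 18 libraries of CD8+ T cells from spleens of OT-I mice, a line with a transgenic T cell receptor for an ovalbumin (OVA) peptide.

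The groups differ in how often the cells met the OVA peptide and in the treatment that followed. Repeat peptide stimulated cells, used as a culture model of T cell exhaustion, met the peptide daily for the first 5 days, with IL-7 and IL-15, and stayed with it afterwards. Single peptide stimulated cells met it once and were then rested. From day 5 to day 8 both were kept with 1 µM ibrutinib, an irreversible inhibitor of Bruton's tyrosine kinase (BTK) that also binds other kinases, or with its solvent DMSO. This gave 4 libraries of repeat peptide cells with DMSO, 5 of repeat peptide cells with ibrutinib, 5 of single peptide cells with DMSO and 4 of single peptide cells with ibrutinib. The genotype entry of the labels gives a name for each culture, which is read here as its experiment and lettered A to F. The labels do not call it an experiment. Experiments A to D each gave 1 library of every group, E gave only a repeat peptide library with ibrutinib, and F only a single peptide library with DMSO. That entry reads as a btk knockout for B to E, whereas the strain of all libraries is listed as wild type and the study's account of its RNA-seq has no btk deficient cells, which is why it is taken only as a name here. The labels do not tie libraries to animals, so p-values measure the spread between these cultures, and ages are not given there.

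Cholesterol and fatty acid synthesis are switched on together by the sterol regulatory element binding proteins (SREBPs), which are held in the endoplasmic reticulum by INSIG proteins when sterols are plentiful and released when they run short. Srebf2 encodes the SREBP that mainly drives sterol genes, and Srebf1 the one that mainly drives fatty acid genes. LXRs answer to oxysterols and switch on cholesterol export. T cells that grow and divide are known to raise lipid synthesis, since new membranes need both kinds of lipid.

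SREBPs bind sterol regulatory elements, usually beside sites of the factor NF-Y, which reads the CCAAT box. RefSeq promoter windows of GRCm38.p6, running from 250 bases before to 50 bases after an annotated transcript start, were given for 26 of the 34 genes (31 windows). Some of these starts lie inside the gene, among them the only one of Acaca. The windows of 4 genes with matches are shown 5′ to 3′ on the strand of the gene. Hmgcs1, Msmo1 and Srebf2 are those that hold both of the marked motifs, and Mvk has the CCAAT box 5 times. That of Abca1 is shown as one without a match. Capitals mark the sterol regulatory element written as TCACNCCA and the CCAAT box, each on either strand, so that ATTGG is a CCAAT box on the other strand.
Hmgcs1, chr13:119690101-119690400, plus strand: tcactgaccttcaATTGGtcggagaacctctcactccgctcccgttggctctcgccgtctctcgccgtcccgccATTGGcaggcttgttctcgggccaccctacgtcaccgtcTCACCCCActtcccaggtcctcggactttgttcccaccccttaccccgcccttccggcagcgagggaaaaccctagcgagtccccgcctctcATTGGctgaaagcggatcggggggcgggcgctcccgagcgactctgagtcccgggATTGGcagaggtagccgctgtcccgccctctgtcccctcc
Msmo1, chr8:64733529-64733828, minus strand: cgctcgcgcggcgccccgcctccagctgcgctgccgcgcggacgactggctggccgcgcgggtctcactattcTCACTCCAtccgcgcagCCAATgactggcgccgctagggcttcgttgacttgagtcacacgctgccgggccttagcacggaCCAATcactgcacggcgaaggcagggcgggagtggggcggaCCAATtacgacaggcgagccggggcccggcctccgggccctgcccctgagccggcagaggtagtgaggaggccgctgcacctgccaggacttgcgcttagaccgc
Srebf2, chr15:82147019-82147318, plus strand: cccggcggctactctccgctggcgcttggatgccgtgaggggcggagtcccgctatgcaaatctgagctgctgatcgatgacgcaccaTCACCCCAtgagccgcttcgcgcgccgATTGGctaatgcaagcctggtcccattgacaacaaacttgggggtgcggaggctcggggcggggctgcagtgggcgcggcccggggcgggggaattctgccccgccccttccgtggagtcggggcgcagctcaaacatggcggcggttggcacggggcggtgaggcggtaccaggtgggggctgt
Mvk, chr5:114444019-114444318, plus strand: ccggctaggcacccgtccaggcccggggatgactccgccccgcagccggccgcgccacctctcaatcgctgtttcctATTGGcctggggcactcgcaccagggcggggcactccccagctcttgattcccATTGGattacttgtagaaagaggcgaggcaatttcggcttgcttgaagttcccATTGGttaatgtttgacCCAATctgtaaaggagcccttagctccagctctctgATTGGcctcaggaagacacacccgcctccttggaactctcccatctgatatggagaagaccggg
Abca1, chr4:53159846-53160145, minus strand: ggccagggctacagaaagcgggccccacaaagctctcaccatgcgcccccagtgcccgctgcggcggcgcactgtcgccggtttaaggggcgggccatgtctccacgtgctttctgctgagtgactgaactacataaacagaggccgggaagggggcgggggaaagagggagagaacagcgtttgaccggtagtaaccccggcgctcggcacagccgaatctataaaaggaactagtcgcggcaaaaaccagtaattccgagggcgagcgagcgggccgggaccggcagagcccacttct
The CCAAT box was found in 15 of the 16 sterol synthesis genes with a window (15 of 19 windows, 78.9%), against 37.4% of all 32851 windows and 38.0% of the 12129 windows of tested genes. It occurred 4 times in the window of Hmgcs1 and 3 times in that of Msmo1. All 3 genes of sterol sensing and transport with a window held it, as did 3 of 6 fatty acid synthesis genes. Acaca, which did not, had only a window inside the gene. TCACNCCA was found only in the windows of Hmgcs1, Msmo1 and Srebf2 among these genes (9.68% of their windows, against 4.36% of all windows). An E-box form of the element, written as TCACNTGA, was in none of the 31 windows and in 4.18% of all windows. The motifs do not overlap in the windows that hold both. A match describes letters in a window, and the lack of a match says only that these letters are not in it.

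Library totals ran from 23445922 to 51995372 expected counts (median 27420966), and the deepest library was repeat peptide cells with ibrutinib of experiment D. To make libraries comparable, normalized counts are given, in which each count is scaled to an average effective library size. Each of the 6 CD8 T cell markers was abundant in every library, with summed levels of 76781 to 129432 normalized counts. Several defining markers of other cells were near 0. Cd4 reached at most 2.4, Csf1r 2.8, Clec9a 0.9 and Hbb-bs 0.0 normalized counts. Others were not. Klrb1c, a gene of NK cells, ran from 103.1 to 970.3 in repeat and from 34.4 to 104.8 in single peptide cells, highest in the repeat peptide libraries of B and E with ibrutinib, while the NK genes Ncr1 and Klra8 reached at most 30.8 and 20.5. Itgax, a gene of dendritic cells, reached 331.0 and Cd79b, a gene of the B cell receptor, 174.6. Cd14 and Cd68, genes of macrophages and monocytes, ran from 6.8 to 83.9 and from 30.2 to 126.4 in repeat peptide cells. In single peptide cells they ran from 0.0 to 1.3 and from 7.4 to 61.6. Zbtb46, a gene of dendritic cells, ran from 20.5 to 154.8 in repeat and from 2.8 to 21.3 in single peptide cells. Itgam, of macrophages and monocytes, tended the other way, at 0.0 to 35.3 against 12.2 to 53.7. Lyz2, a gene of myeloid cells, was at 64.3 in repeat peptide cells with ibrutinib of E, 129 in single peptide cells with DMSO of A and 101 in single peptide cells with ibrutinib of A. Foxp3, a gene of regulatory T cells, was at 490.0 and 726 in the single peptide libraries of B, at 65.4 to 123.2 in the other single peptide libraries and at 0.0 to 76.2 in repeat peptide cells. The CD4 lineage gene Zbtb7b ran from 608.2 to 1189 in repeat and from 78.7 to 246.6 in single peptide cells, with Cd4 near 0 in both. Summed lists of macrophage, dendritic cell, NK cell and CD4 T cell markers reached at most 223.7, 352.6, 982.8 and 1193 normalized counts. The part of these genes in the results was not tested. The targeted Btk had at most 27 expected counts in any library, so its level says nothing about the drug. In such bulk libraries fewer cells that use a gene and less RNA of it per cell cannot be told apart.

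**Figure D1:**
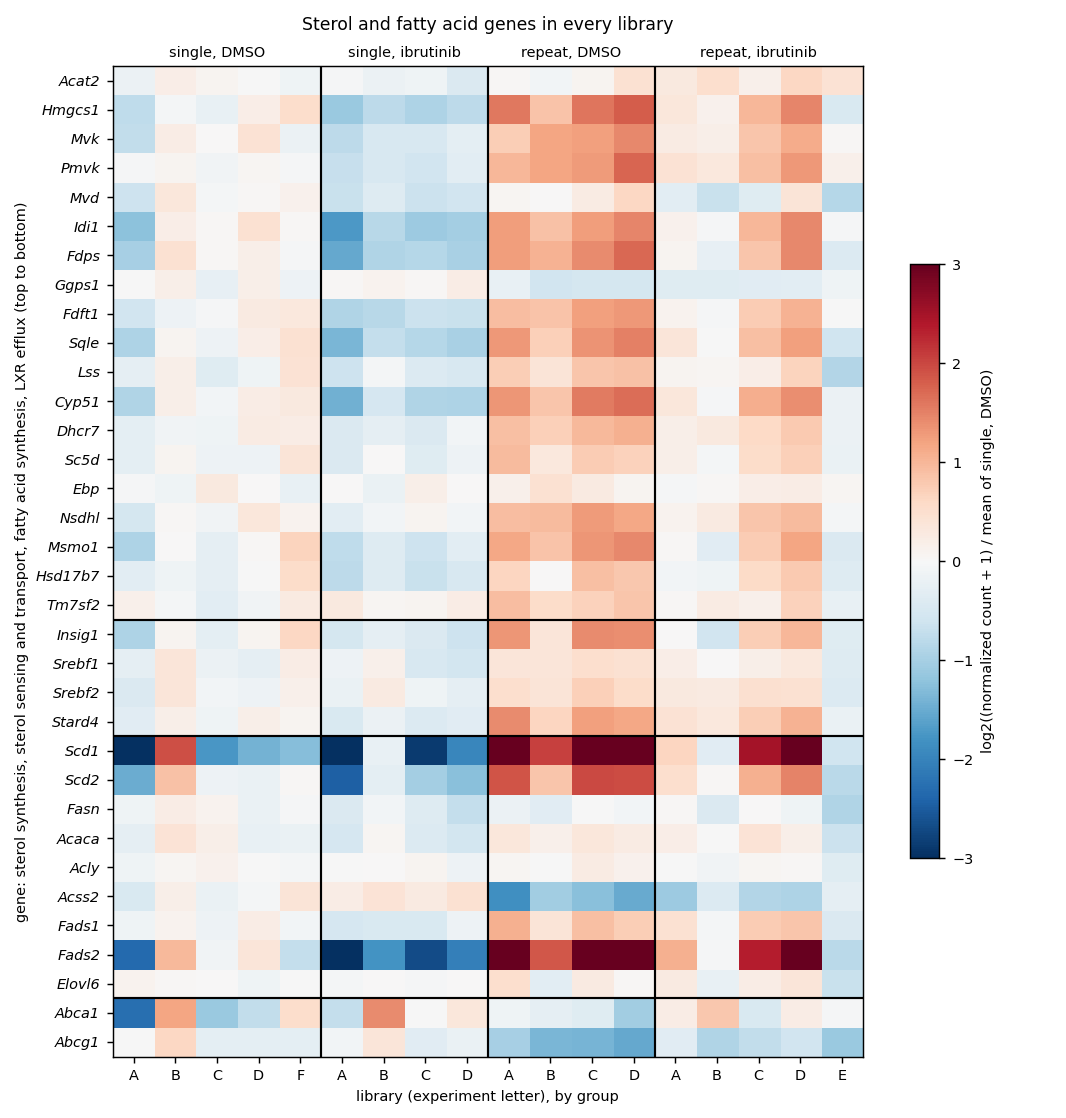
Levels of the 34 genes (rows, by role) in the 18 libraries (columns, by group and experiment letter) as log2 of the normalized count plus 1, relative to the mean of single peptide cells with DMSO. Red marks higher and blue lower values, and the scale stops at 3 in either direction. Most sterol synthesis rows are red across repeat peptide cells with DMSO and paler in those with ibrutinib, where libraries C and D stay reddest and E is palest or blue.

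On the TPM scale, which corrects for gene length and library size, the levels of these genes spanned a wide range. Acly, which makes the cytosolic acetyl-CoA that both routes start from, had the highest mean over the 4 groups (109 TPM), followed by Srebf2 (103 TPM) and Fdps (101 TPM), and Abca1 had the lowest (1.01 TPM). In repeat peptide cells with DMSO the order was different. Scd2, a fatty acid desaturase, stood at 205.5 ± 70.4 TPM (SD, n = 4) and Fdps, which makes farnesyl diphosphate, at 201.7 ± 39.9 TPM, levels that do not differ beyond their spread. The 19 sterol synthesis genes together held 969 ± 168 TPM (SD, n = 4) in repeat peptide cells with DMSO and 430 ± 77.7 TPM (SD, n = 5) in single peptide cells with DMSO, and these libraries did not overlap. With ibrutinib they held 604 ± 224 TPM (SD, n = 5) in repeat and 285 ± 48.5 TPM (SD, n = 4) in single peptide cells. The repeat peptide library of E held 285 TPM, on this scale near the single peptide cells with ibrutinib. In normalized counts E was above all single peptide libraries with ibrutinib for Hmgcs1 (2367 against 1513 to 1913). The same held for Fdps (1247 against 579.3 to 923.6), while E was below them for Lss (667.7 against 796.4 to 1168). In E, Ggps1 was highest of its group by normalized count (748.6 against 641.6 to 660.0). By TPM it was lowest (10.35 against 12.0 to 14.56). Ebp in E was inside the range of its group by normalized count (1409) and lowest by TPM (29.42 against 44.87 to 50.45). Abca1 went the other way, highest in E by TPM. How far low TPM of E across genes moved the mean of 604 was not tested. The repeat peptide library of D with ibrutinib held 894 TPM, above the DMSO library of B at 723 TPM. Summed TPM of the fatty acid synthesis genes in repeat peptide cells were 558 ± 120 (SD, n = 4) without the drug and 367 ± 117 (SD, n = 5) in its presence. These groups overlapped, since ibrutinib libraries A, C and D (420, 436 and 457) lay above DMSO library B (381), while E held 169. The genes did not move alike. Mean TPM of Scd2 went from 205.5 to 91.96 and of Fads2 from 41.67 to 13.21. Fasn went from 98.89 to 88.76, and Acss2 rose from 9.395 to 14.48. Of the 2 exporters nearly all TPM were of Abcg1, and their sum was 10.9 ± 2.7 TPM (SD, n = 4) in repeat and 23.8 ± 8.92 TPM (SD, n = 5) in single peptide cells with DMSO, while the mean of Abca1 was 0.64 and 1.02 TPM in these groups.

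**Figure D2:**
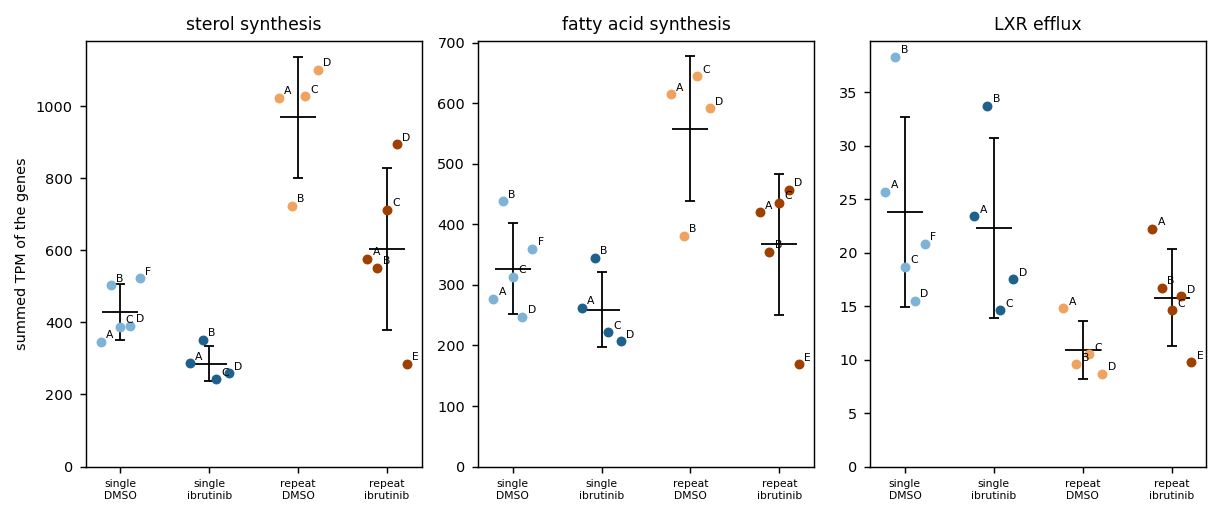
Summed TPM (vertical axis, from 0) of the sterol synthesis, fatty acid synthesis and LXR efflux genes in each library (points, with the experiment letter) of the 4 groups, with the mean (line) and SD (bars). Sterol synthesis sums of repeat peptide cells with DMSO lie between 723 and 1101, above all single peptide libraries, which lie between 242 and 522.

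Repeat peptide stimulation went with higher expression of most of these genes. Against single peptide cells, both with DMSO, 23 of the 34 genes were called higher and 3 lower. Calls used the numerical thresholds of the study, which applied them to DESeq2 Wald tests and shrunken fold changes, so its calls and these can differ. In edgeR's quasi-likelihood test over all 12255 genes, the p-value adjusted after Benjamini and Hochberg had to be under 0.05, the log2 fold change had to exceed 0.2 in size, and the normalized count had to average 50 or more. Calls were common in this comparison, since 22.8% of all tested genes were called higher and 24.2% lower. How many of all tested genes had groups without overlap was not counted, so a lack of overlap describes only the gene named. The median log2 fold change was 1.09 over the sterol synthesis genes, 0.84 over the 4 genes of sterol sensing and transport, 0.27 over the fatty acid synthesis genes and -0.86 over the exporters, against -0.002 over all tested genes. By role, 15 of 19 sterol synthesis genes, 4 of 4 genes of sensing and transport and 4 of 9 fatty acid synthesis genes rose.

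Hmgcs1, on chromosome 13 (GRCm38, 119690379 to 119708260), makes the HMG-CoA that enters the mevalonate pathway. It had 9739, 5885, 9916 and 11480 normalized counts in repeat peptide cells with DMSO of A, B, C and D. In single peptide cells with DMSO it had 1919, 3138, 2814, 3782 and 4718 in A, B, C, D and F. Every repeat peptide library was above every single peptide library (means 9255 ± 2379, SD, n = 4, and 3274 ± 1050, SD, n = 5), and B was the lowest of the repeat peptide libraries. The log2 fold change was 1.499 (SE 0.305, edgeR adjusted p = 0.000468), the largest of the sterol synthesis genes in this comparison. Pmvk, the phosphomevalonate kinase of the same pathway, had 754, 866, 922 and 1279 normalized counts against 374, 406, 354, 393 and 373, in the same order of experiments. The single peptide libraries of this gene lay close together and far below the others, with a log2 fold change of 1.33 (SE 0.198, edgeR adjusted p = 2.19e-05). For Fdft1, squalene synthase and the first enzyme committed to sterols, the values were 1493, 1426, 1858 and 1939 against 533.5, 709.6, 769.8, 954 and 979. Those groups did not overlap either, and the log2 fold change was 1.09 (SE 0.214, edgeR adjusted p = 0.000334).

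The late enzymes, which turn lanosterol into cholesterol, rose as well. Dhcr7, the reductase of the last step of one branch, measured 1644, 1434, 1704 and 1830 normalized counts with repeat and 708, 811, 794, 1032 and 1024 with single peptide. Nsdhl, which helps to remove methyl groups from the sterol ring, measured 820.0, 832, 1044 and 965 against 296, 443.5, 403, 548 and 461. Tm7sf2, a sterol reductase, measured 366, 286, 313 and 346 against 217, 185, 155.5, 179.6 and 233. The log2 fold changes of these 3 genes were 0.92 (SE 0.163), 1.09 (SE 0.197) and 0.76 (SE 0.17). The other called sterol synthesis genes were Mvk, Idi1, Fdps, Sqle, Lss, Cyp51, Sc5d, Msmo1 and Hsd17b7, with log2 fold changes between 0.64 for Hsd17b7 and 1.38 for Cyp51. Hsd17b7 kept its call in 12 of the 18 fits that left out 1 library. Ggps1, which turns farnesyl diphosphate to protein prenylation and away from sterols, was the only sterol synthesis gene called lower, at -0.46 (SE 0.11, edgeR adjusted p = 0.00183). Acat2, Mvd and Ebp were not called, at 0.13, 0.25 and 0.25.

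All 4 genes of sensing and transport were called higher. Insig1, whose product retains SREBPs and which is itself a classic SREBP target, had 3259, 1668, 3515 and 3453 normalized counts in repeat and 689.7, 1371, 1067, 1377 and 2022 in single peptide cells with DMSO. The repeat library of B lay within the single peptide range, and the log2 fold change was 1.19 (SE 0.312, edgeR adjusted p = 0.00359). Stard4, a carrier of free cholesterol, had 5682, 3312, 5032 and 4736 against 1681, 2394, 1950, 2391 and 2243, without overlap, at 1.14 (SE 0.192). For Srebf2, 15450, 14170, 17830 and 15840 normalized counts stood against 8037, 14010, 10320, 9833 and 12100. Its groups were separate by a narrow margin, between the 2 libraries of B, and its log2 fold change was 0.54 (SE 0.175, edgeR adjusted p = 0.0138). Srebf1, at 5549, 5522, 6077 and 5965 against 3600, 5527, 3840, 3599 and 5016, overlapped only through the single peptide library of B. Its log2 fold change was 0.42 (SE 0.163, edgeR adjusted p = 0.0362), and it kept the call in 11 of the 18 fits that left out 1 library.

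Among the fatty acid genes the rise was limited to desaturases. Scd1, a stearoyl-CoA desaturase, went from 13.7, 516, 39.5, 49.98 and 54.96 normalized counts in single peptide cells with DMSO (A, B, C, D and F) to 1810, 566, 2272 and 2762 in repeat peptide cells with DMSO. Experiment B stood apart in both groups, as the highest single and the lowest repeat peptide library. The log2 fold change was 3.77 (SE 1.06, edgeR adjusted p = 0.00674), the largest of all 34 genes, and without the single peptide library of B it was 5.55. Scd2, its relative with far higher counts, measured 27980, 13620, 30300 and 29420 in repeat and 2705, 14010, 6913, 6649 and 7846 in single peptide cells. Within experiment B the order of Scd2 was turned, although the groups differed by 1.73 (SE 0.463, edgeR adjusted p = 0.00416). Fads2 and Fads1, the desaturases of polyunsaturated fatty acids, were called at 3.34 (SE 0.698) and 0.79 (SE 0.204). Fasn, Acaca, Acly and Elovl6, which build and elongate the saturated chain, were not called and had log2 fold changes of -0.15, 0.27, 0.11 and 0.16.

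Acss2 and Abcg1 fell. Acss2 makes acetyl-CoA from acetate, and it had 414, 719, 621.5 and 519 normalized counts in repeat against 1083, 1676, 1289, 1433 and 1932 in single peptide cells with DMSO. Every repeat peptide library was below every single peptide library, at a log2 fold change of -1.38 (SE 0.195, edgeR adjusted p = 1.31e-05). Abcg1, which exports cholesterol to lipoproteins, had 1003, 770.1, 765 and 684 against 1996, 3095, 1643, 1623 and 1642. These too were separate, at -1.31 (SE 0.207, edgeR adjusted p = 3.94e-05). Abca1, the other exporter, had few counts, 180.3, 162, 152 and 94.99 against 39.9, 450.0, 90.5, 117 and 284, and its single peptide libraries spanned the whole repeat peptide range. It was not called, at -0.41 (SE 0.524), and the sign turned with the block (0.18) and without the single peptide library of B (0.16).

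With ibrutinib in both, 19 of the 34 genes were called higher in repeat than in single peptide cells and 3 lower, against 18.7% and 19.6% of all tested genes. This comparison shares no library with the one above, but both draw on experiments A to D and on 1 fit, so they are not independent. By role, 14 of 19 sterol synthesis genes, 1 of 4 of sensing and transport and 4 of 9 of fatty acid synthesis rose, with medians of 0.80, 0.54 and 0.40 on the log2 scale. Acat2, the cytosolic thiolase that makes acetoacetyl-CoA, was called here at 0.61 (SE 0.125). Stard4 was called at 0.87 (SE 0.196), while Insig1 at 0.76, Srebf1 at 0.32 and Srebf2 at 0.32 were not, with edgeR adjusted p = 0.06, 0.127 and 0.152. Lss at 0.49 and Tm7sf2 at 0.06 were not called either. Scd1, Scd2, Fads1 and Fads2 were the called fatty acid genes, and Scd1, at 3.65 (SE 1.17), kept its call in 14 of the 18 fits that left out 1 library. Ggps1, Acss2 and Abcg1 fell, at -0.40, -1.03 and -0.67. With the experiment as a block in the fit, 24 genes were called higher, Insig1, Srebf1, Srebf2, Lss and Acaca being added (22.5% of all tested genes higher and 26.0% lower). Without the repeat peptide library of D, 15 were called higher and 3 lower, against 16.0% and 15.3% of all tested genes.

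Ibrutinib in repeat peptide cells addressed whether the drug moved these genes back towards the level of single peptide cells. The comparison shares its DMSO libraries with the one between stimulations, so opposite directions in the 2 are not independent of each other. Of the 34 genes, 1 was called higher and 0 lower, while 4.01% of all tested genes were called higher and 1.92% lower. The log2 fold changes were nevertheless mostly negative, in 17 of 19 sterol synthesis genes, 4 of 4 of sensing and transport and 8 of 9 of fatty acid synthesis. Their medians were -0.60, -0.48 and -0.20, against 0.004 over all tested genes. An unadjusted edgeR p under 0.05 was reached by 21 of the 34 genes, against 2647 of all 12255 genes. By DESeq2's Wald test, 8 genes were called lower and 2 higher, against 3.2% and 5.23% of the 13025 genes with an adjusted p there. In the study's own pathway analysis, a synthesis route through mevalonate was among the pathways predicted as inhibited by ibrutinib in these cells.

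**Figure D3:**
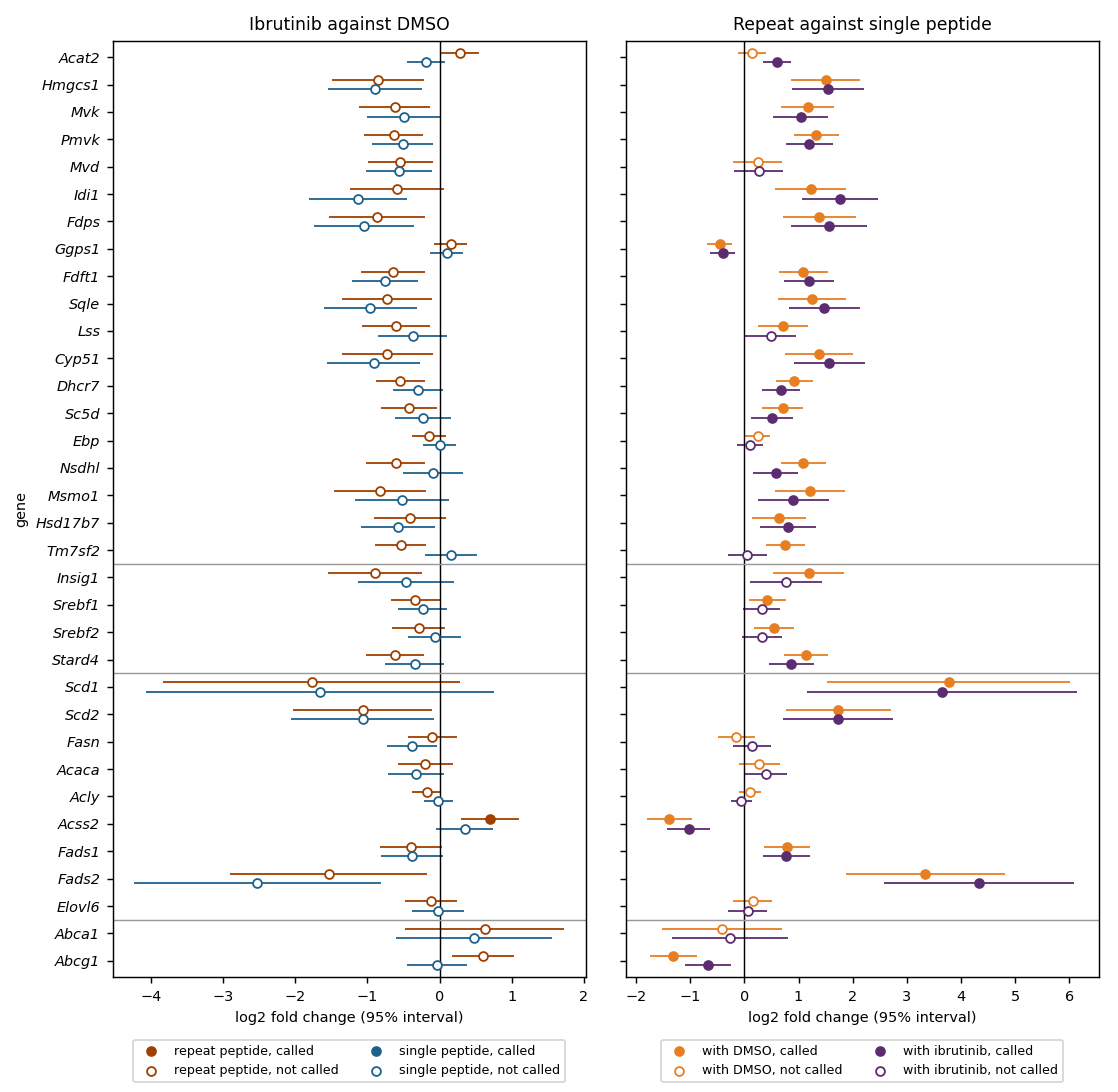
Log2 fold changes (horizontal axes) with 95% intervals for the 34 genes (rows, by role) by edgeR, for ibrutinib against DMSO on the left and repeat against single peptide on the right. Filled points were called and open points were not. On the left Acss2 in repeat peptide cells is the 1 filled point, and the open points of most sterol synthesis genes lie left of 0, as for Hmgcs1 at -0.85.

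Libraries of the same experiment tended to deviate together from their group means, and adding the experiment to the model as a block gave more calls. This fit called 7 genes lower (Hmgcs1, Mvk, Pmvk, Fdft1, Dhcr7, Nsdhl and Msmo1) and 2 higher (Acss2 and Abcg1), against 5.35% and 8.47% of all tested genes. All 7 are sterol synthesis genes. In that fit the library of E, alone in its experiment, carries no weight. Taken one experiment at a time, 15 of 19 sterol synthesis genes, 4 of 4 of sensing and transport and 4 of 9 fatty acid synthesis genes were lower with ibrutinib in each of A, B, C and D. Over all 34 genes 23 were lower in each and 3 were higher in each (Acat2, Acss2 and Abcg1), whereas 19.9% of all tested genes were lower and 18.6% higher in each. The median difference over the sterol synthesis genes was -0.80 in A, -0.68 in B, -0.45 in C and -0.23 in D on the log2 scale.

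The count of calls changed with 1 library. Among repeat peptide cells with ibrutinib, that of D was the highest for 18 of the 19 sterol synthesis genes and that of E the lowest for 14. Without the library of D, 16 genes were called lower and 1 higher (2.46% and 4.67% of all tested genes), 13 of them sterol synthesis genes, with Insig1, Stard4 and Fads2. Leaving out other libraries gave between 0 and 3 genes called lower. Library D was also the deepest of all, and the part of depth in this was not tested.

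Hmgcs1 had 4139, 3609, 6508, 9012 and 2367 normalized counts in repeat peptide cells with ibrutinib of A, B, C, D and E. Those of C and D lay above the lowest DMSO library, so the groups overlapped. The log2 fold change against DMSO was -0.85 (SE 0.303, edgeR adjusted p = 0.103), and with the block -0.72 (adjusted p = 0.035). In Fdft1 the values were 843, 766, 1333, 1627 and 781, of which only D reached the DMSO range, at -0.65 (SE 0.213, edgeR adjusted p = 0.0764) and with the block -0.60 (adjusted p = 0.00448). Pmvk, at 513, 474, 709, 942 and 424, likewise overlapped DMSO only through D. Its log2 fold change was -0.64 (SE 0.196, edgeR adjusted p = 0.0592), and with the block -0.54 (adjusted p = 0.015).

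For Dhcr7, which came closest to the threshold among the lower genes, 982, 1078, 1321, 1505 and 777 normalized counts were measured. All but D were below the lowest DMSO library, at -0.54 (SE 0.162, edgeR adjusted p = 0.0527) and with the block -0.45 (adjusted p = 0.00437). Nsdhl, at 463, 519.9, 766.5, 832 and 416.5, touched the DMSO range only in D, with -0.61 (SE 0.195, edgeR adjusted p = 0.0696) and with the block -0.53 (adjusted p = 0.012). Tm7sf2 had 200.1, 231, 215, 313 and 167 counts and a log2 fold change of -0.54 (SE 0.169, edgeR adjusted p = 0.0653), which the block did not bring below the threshold (adjusted p = 0.0519). The largest negative values among the other sterol synthesis genes were -0.87 for Fdps, -0.82 for Msmo1, -0.73 for Sqle and -0.72 for Cyp51. Acat2 and Ggps1 were the 2 with positive values, 0.28 and 0.16.

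Insig1 had 1324, 877, 2195, 2593 and 1021 normalized counts with ibrutinib, and A and E were below every DMSO library, as was B. The log2 fold change was -0.89 (SE 0.31, edgeR adjusted p = 0.0958), the lowest of the 4 genes of sensing and transport. Stard4, at 2881, 2650, 3562, 4362 and 1864, overlapped DMSO in C and D, with -0.61 (SE 0.191, edgeR adjusted p = 0.0617). The genes of the SREBPs themselves had smaller values. Srebf2 had 13410, 13030, 15180, 14890 and 8143 counts, within the DMSO range in C and D and far below it in E alone, at -0.29 (SE 0.175, edgeR adjusted p = 0.35). Srebf1 had 4940, 4342, 4911, 5397 and 3280, all below the lowest DMSO library, with E farthest below, at -0.34 (SE 0.163, edgeR adjusted p = 0.237).

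Scd1 varied most. It measured 211, 106, 759.8, 1518 and 89.3 normalized counts with ibrutinib, of which C and D lay within the DMSO range. The log2 fold change of -1.77 had an SE of 0.973 and was not called (edgeR adjusted p = 0.305). Scd2, at 10870, 7825, 16030, 21490 and 4333, was lower with ibrutinib within each of A, B, C and D and was not called, at -1.06 (SE 0.459, edgeR adjusted p = 0.182). Fads2 had a log2 fold change of -1.53 (SE 0.651), and Fasn, Acaca, Acly and Elovl6 lay between -0.20 and -0.10. With the block the signs of Fasn (0.028) and Elovl6 (0.024) turned.

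Acss2, on chromosome 2 (GRCm38, 155517948 to 155585724), was the gene called higher. It had 696, 1111, 807, 777.7 and 1227 normalized counts with ibrutinib in A, B, C, D and E, and only A fell within the DMSO range. The log2 fold change was 0.70 (SE 0.192, edgeR adjusted p = 0.0356), and with the block 0.58 (adjusted p = 0.00136). Its adjusted p ran from 0.00136 to 0.11 over the alternatives. It was called in 13 of the 18 fits that left out 1 library and not in those without DMSO library A, C or D or ibrutinib library B or E. Abcg1 had 1577, 1078, 1195, 1339 and 927 counts and overlapped DMSO only through E. Its log2 fold change was 0.60 (SE 0.203, edgeR adjusted p = 0.0841), and it was called with the block, at 0.70 (adjusted p = 0.0123). Abca1, at 230.4, 343.5, 143, 229 and 192, overlapped DMSO and had 0.63 (SE 0.525, edgeR adjusted p = 0.52).

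**Figure D4:**
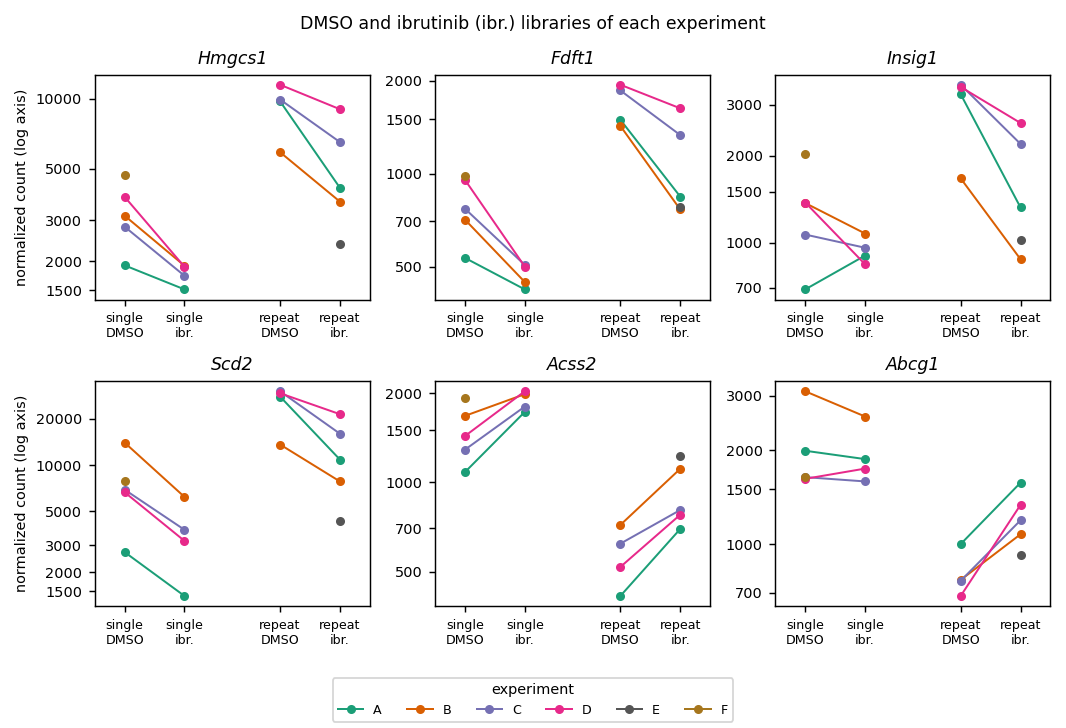
Normalized counts (log axes) of 6 genes in single and repeat peptide cells with DMSO and with ibrutinib (ibr.), with lines between libraries of the same experiment. E and F have 1 library each and no line. In repeat peptide cells all 4 lines fall for Hmgcs1, Fdft1, Insig1 and Scd2 and all 4 rise for Acss2 and Abcg1. In single peptide cells the lines of Insig1 and Abcg1 are mixed.

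In single peptide cells 0 of the 34 genes were called with ibrutinib in either direction by edgeR, against 0.351% of all tested genes higher and 2.69% lower. The median log2 fold change was -0.51 over the sterol synthesis genes, -0.29 over sensing and transport and -0.38 over fatty acid synthesis, against 0.01 over all tested genes. An unadjusted p under 0.05 was reached by 12 of the 34 genes, against 1658 of all tested genes. DESeq2 called 7 genes lower (Hmgcs1, Idi1, Fdps, Fdft1, Sqle, Cyp51 and Fads2) and 0 higher, against 4.14% and 0.665% of the 12637 genes with an adjusted p there. With the block, 5 genes were called lower (Mvk, Pmvk, Idi1, Fdps and Fdft1) and Acss2 higher, against 6.32% and 2.77% of all tested genes. In each of A, B, C and D 20 of the 34 genes were lower and 3 higher (Tm7sf2, Acss2 and Abca1), against 17.2% and 19.8% of all tested genes.

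Hmgcs1 had 1513, 1913, 1732 and 1893 normalized counts in single peptide cells with ibrutinib of A to D. Each was below the lowest DMSO library, at -0.89 (SE 0.311, edgeR adjusted p = 0.161). Fdft1 had 422, 446, 506 and 500.2 and Pmvk 233, 273.5, 256 and 307, also without overlap with DMSO. Their log2 fold changes were -0.75 (SE 0.22, edgeR adjusted p = 0.075) and -0.51 (SE 0.202, edgeR adjusted p = 0.242), and with the block -0.64 (adjusted p = 0.0042) and -0.53 (adjusted p = 0.03). Idi1, which isomerizes isopentenyl diphosphate, and Fdps had the most negative values of the sterol synthesis genes, -1.13 (SE 0.324) and -1.04 (SE 0.331). Both were called with the block, at -1.06 (adjusted p = 0.0354) and -1.02 (adjusted p = 0.0417).

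Dhcr7 had 644, 723, 648 and 832 normalized counts, Nsdhl 346, 404, 458 and 405, and Tm7sf2 236, 202, 205 and 225, all overlapping DMSO. Their log2 fold changes were -0.30, -0.10 and 0.16. Insig1, at 903, 1076, 961 and 842, and Stard4, at 1548, 1890, 1595 and 1688, overlapped DMSO as well, at -0.47 (SE 0.316) and -0.34 (SE 0.194). Srebf1 had 3863, 4784, 3079 and 2952 counts and Srebf2 9441, 13100, 9889 and 8989, with B highest in both, at -0.23 and -0.07.

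Scd1 had low counts in single peptide cells with ibrutinib, at 4.74, 115, 17.6 and 33.9 normalized counts, B again standing highest. Its log2 fold change of -1.66 (SE 1.14) turned to 0.115 without the DMSO library of B. Scd2, at 1401, 6204, 3785 and 3204, was lower with ibrutinib within each experiment, at -1.06 (SE 0.472, edgeR adjusted p = 0.315). Acss2, at 1728, 1983, 1801 and 2028, was higher within each, at 0.35 (SE 0.187, edgeR adjusted p = 0.453) and with the block 0.48 (adjusted p = 0.00528). Abcg1 had 1877, 2570, 1592 and 1750 counts and Abca1 118.5, 529, 196 and 249.6, both inside the DMSO range or overlapping it, at -0.04 (SE 0.199) and 0.48 (SE 0.514).

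The difference between the ibrutinib effects, repeat minus single peptide, was tested as an interaction. For it 0 of the 34 genes were called higher and 0 lower by edgeR, against 1.04% and 0.212% of all tested genes, and DESeq2 and the fit with the block also called 0. An unadjusted p under 0.05 was reached by 3 genes (Acat2, Tm7sf2 and Abcg1), against 1397 of all tested genes. Abcg1 had a difference of 0.64 (95% interval 0.05 to 1.24, edgeR adjusted p = 0.384) and Tm7sf2 one of -0.70 (95% interval -1.21 to -0.20, edgeR adjusted p = 0.204). For Hmgcs1 the difference was 0.04, with a 95% interval from -0.86 to 0.95, and for Scd2 -0.001, from -1.39 to 1.39. Such intervals include differences as large as the ibrutinib effects themselves, in either direction.

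Related genes were counted in 6 further lists, to be read against the 22.8% of all tested genes called higher and 24.2% called lower with repeat peptide and DMSO, and the 4.01% and 1.92% with ibrutinib in repeat peptide cells. In single peptide cells 0 of their genes were called with ibrutinib by edgeR. None of the 6 genes of SREBP processing was called with ibrutinib in repeat peptide cells, and 1 was called higher with repeat peptide and DMSO, Insig2, the relative of Insig1 (0.40, SE 0.135). Of 8 genes that use isoprenoids, 0 were called with ibrutinib in repeat peptide cells. With repeat peptide and DMSO 3 were higher, among them Pggt1b at 0.53 (SE 0.143) and Dhdds at 0.36 (SE 0.112), and 1 lower, Fntb, the catalytic farnesyltransferase subunit, at -1.35 (SE 0.141). Among 5 tested genes of LXRs and oxysterols, 1 was higher and 2 lower with repeat peptide and DMSO, against 22.8% and 24.2% of all tested genes. The lower ones were the LXR gene Nr1h2, at -0.50 (SE 0.125, edgeR adjusted p = 0.00254), and Mylip. Mylip, an LXR target that degrades lipoprotein receptors, fell by 3.53 on the log2 scale. Mylip rose with ibrutinib in repeat peptide cells at 1.01 (SE 0.264, edgeR adjusted p = 0.0271). Lpcat3, a phospholipid remodelling enzyme and also an LXR target, rose with repeat peptide at 0.69 (SE 0.122) and fell with ibrutinib in repeat peptide cells at -0.43 (SE 0.122, edgeR adjusted p = 0.0423).

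Of 8 tested genes of cholesterol uptake, storage and traffic, 5 were lower and 0 higher with repeat peptide and DMSO, against 24.2% and 22.8% of all tested genes (Soat1, Soat2, Nceh1, Npc2 and Stard3). Soat2 and Soat1, which esterify cholesterol for storage, were at -1.004 (SE 0.25) and -0.60 (SE 0.172). Npc2, which hands cholesterol out of lysosomes, was at -1.41 (SE 0.144) there and was called higher with ibrutinib in repeat peptide cells at 0.48 (SE 0.14, edgeR adjusted p = 0.048). Among 16 tested genes of further fatty acid synthesis and activation, 8 were higher and 2 lower with repeat peptide and DMSO, against the same 22.8% and 24.2%. Elovl5, an elongase of polyunsaturated chains, fell by 0.63 on the log2 scale. Elovl7, another elongase, fell by 3.19 on the log2 scale and rose with ibrutinib in repeat peptide cells at 1.43 (SE 0.188, edgeR adjusted p = 0.000184), and it was the 1 gene of these lists called in the interaction (1.33, SE 0.254). Tecr, the last enzyme of the elongation cycle, rose at 0.66 (SE 0.0828) and fell with ibrutinib at -0.30 (SE 0.0828, edgeR adjusted p = 0.0358). Of 12 genes of fatty acid oxidation, 6 were higher and 1 lower with repeat peptide and DMSO, again beside 22.8% and 24.2%. Etfb and Etfa, the electron transfer flavoprotein subunits, rose at 0.95 (SE 0.182) and 0.64 (SE 0.139). Acadl, a dehydrogenase of long chains, rose at 1.61 (SE 0.111) and was called lower with ibrutinib in repeat peptide cells at -0.47 (SE 0.11, edgeR adjusted p = 0.0135). Each of these comparisons in repeat peptide cells shares the DMSO libraries with the one between stimulations, so opposite directions are not independent of each other.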

How the data were processed

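RNA of 18 libraries was sequenced from oligo-dT selected, stranded, paired-end preparations. Per the labels and the study's methods, the authors trimmed reads with Trim Galore and mapped them to GRCm38 by STAR inside RSEM 1.3.1, and the submitters' notes also list SAMtools 1.10, DESeq2 1.30.0 and R 4.0.3. For each gene and library they deposited an expected count, which is not normalized, a TPM value, which is scaled to length and to the library, and an effective length in bases, used only as an offset in an alternative. RSEM spreads reads that match several genes, so values of near-identical copies are uncertain.

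Expected counts were rounded to whole numbers. Of 45706 genes, 45143 matched the GENCODE M21 annotation, 27903 were protein-coding or lncRNA, and 12255 passed edgeR's filterByExpr. Between 98.1% and 98.7% of each library's counts lay in the kept gene types. Counts were fitted with all 4 groups in 1 model (edgeR 4.0.16 with TMM, limma 3.58.1, R 4.3.3), using the robust quasi-likelihood test with Benjamini-Hochberg adjustment over all 12255 genes. TPM was used only for levels. DESeq2 1.42.0, the experiment as a block, other filters, scalings and thresholds, and fits without each library were alternatives. The fit was tested on simulated data.

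Libraries of the same experiment tended to deviate together from their group means, with correlations from 0.16 to 0.494 over 24 pairs across genes (median 0.325). Over 97 pairs of different experiments the median was -0.0765 and the range -0.44 to 0.404, so the ranges overlapped. The names in the labels' genotype entry, read as experiments, were therefore taken to pair libraries in the fit with the block and in the differences within experiments. The main edgeR fit has no block and does not use this pairing. Values in every library are given for the 10 genes with the smallest p in repeat peptide cells with ibrutinib against DMSO, and for Insig1, Srebf1, Srebf2, Stard4, Abca1, Abcg1, Scd1 and Scd2, 15 genes in all. Of the further lists, genes called in repeat peptide cells with ibrutinib are named, with up to 3 per list of smallest p between stimulations with DMSO. The genes and lists were chosen with earlier results of these data known. Genes of the pathway outside them are not reported here.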

Additional observations from a re-analysis of the deposited data

Results flagged for a closer look

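In 136 sets of libraries (34 genes in 4 groups), 7 held 1 library far from the others of its group by Dixon's ratio, and chance flags about 1 in 20 such sets. Experiment B gave 4 of them. Scd1 was at 516.0 normalized counts in single peptide cells with DMSO of B, against 13.68 to 54.96 in the other 4 libraries. Abcg1 was at 3095 in that same library, against 1623 to 1996. In repeat peptide cells with DMSO of B, Scd2 was at 13620 against 27980 to 30300 in the other libraries, and Insig1 at 1668 against 3259 to 3515. Ggps1 stood apart in 2 groups, at 704.9 in repeat peptide cells with DMSO of A (others 552.9 to 571.0) and at 748.6 in repeat peptide cells with ibrutinib of E (others 641.6 to 660.0). Fads1 was at 831.9 in single peptide cells with ibrutinib of D, against 657.0 to 677.2.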

How the results depend on the processing

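Counts in both ibrutinib comparisons depended on the fit. In repeat peptide cells, where 1 gene was called higher and 0 lower, the fit with the experiment as a replicate block called 2 higher and 7 lower, DESeq2 2 higher and 8 lower, and DESeq2's size factors within edgeR 1 lower. The count of higher genes was 0 with an absolute log2 fold change above 1, with only experiments A to D and with only the compared groups. Without 1 library at a time it ran from 0 to 2 higher and from 0 to 16 lower, the 16 being without repeat peptide library D with ibrutinib and the 2 without single peptide library B with DMSO. In single peptide cells (0 in both directions) the block called 1 higher and 5 lower, DESeq2 7 lower, and fits without 1 library from 0 to 3 lower, 3 without repeat peptide library D with ibrutinib and 2 without single peptide library A with DMSO. The higher genes between stimulations dropped from 23 to 15 with DMSO and from 19 to 11 with ibrutinib at an absolute log2 fold change above 1, and the lower ones with ibrutinib from 3 to 1, since that threshold keeps fewer genes. The 19 became 24 with the block and 15 without repeat peptide library D. For the 15 genes given by library, 360 values under alternatives in repeat peptide cells with ibrutinib had 0 reversed directions, 322 on the same side of the threshold, 32 newly past it and 6 no longer past it. Reversals were unlikely here, since most of these genes were chosen by their small p in this comparison. Several alternatives also left out only a single peptide library. Outside the 15 genes, with the block Fasn turned from -0.098 to 0.028 and Elovl6 from -0.118 to 0.024. With 4 or 5 libraries a group, a gene that was not called may still differ. Other causes of these shifts were not tested.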
